A study of Mus musculus with 34 samples.

Results

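The cadherin genes Cdh1, Cdh2 and Cdh3, the surface gene Epcam, the filament gene Vim and the transcription factor genes Snai1, Snai2, Twist1, Zeb1 and Zeb2 were followed through 2 mouse embryonic stem (ES) cell lines. They are 10 of 18194 genes that had at least 1 probe set with a single gene symbol on the Affymetrix arrays MOE430A and MOE430B. All probe sets whose older or updated symbol was one of these names were taken, which gave 23, with 14 on MOE430A and 9 on MOE430B. Of these, 14 passed the filter on dim signal and were tested, and they covered 9 genes; Twist1 had no tested probe set.

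The lines C2 and D4 were both derived from C57BL/6 blastocysts, and no transgene or other allele is named for them. Early-passage cells, which gave low chimerism and no germline transmission, grew in DMEM with 15% fetal bovine serum. Late-passage cells, which gave high chimerism and germline transmission, grew in Thromb-XTX-WES medium and were sampled as attached and as detached cells. All cultures had LIF, 5% CO2 and 37 C and grew on mouse embryonic fibroblast feeders, and the labels name these feeders as contaminating cells at an estimated purity of about 90%. Feeders were reduced by light trypsin treatment and by replating the suspension for 1 h. Passage, medium and chimerism changed together and cannot be told apart, and each line is a single line. The labels do not state which surface the words attached and detached refer to. Each group of a line in a state held 3 RNAs, except detached D4 with 2 (numbered 1 and 3), so 17 RNAs were measured on 34 arrays. Separate cultures are not stated for the RNAs within a group, and the p-values therefore reflect only the variation among the RNAs at hand, possibly technical.

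E-cadherin, the product of Cdh1, joins neighbouring epithelial cells through catenins, and ES cells grow as colonies held together by it. In an epithelial to mesenchymal transition, transcription factors of the Snail, Twist and Zeb families repress Cdh1 and other epithelial genes, while N-cadherin (Cdh2) and vimentin (Vim) come up. Fibroblasts, the feeder cells here, are mesenchymal cells that make vimentin and N-cadherin themselves. In such bulk RNA, fewer cells of a type and less RNA per cell cannot be told apart.

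Snail and Zeb proteins bind the E-box CAGGTG, which reads CACCTG on the opposite strand. It is shown here in the promoter of Epcam, an epithelial member whose level is described below. The promoter of Vim is shown because Vim is the member whose change with passage was called. Both windows are the 250 bases before the annotated start, from RefSeq on GRCm38.p6, on the plus strand, at chr17:87635729-87635978 for Epcam and chr2:13574061-13574310 for Vim. Capitals mark the E-box on either strand in Epcam, and in Vim the CCAAT box (CCAAT or ATTGG) and the TATA box (TATAAA, also searched as TTTATA).
Epcam: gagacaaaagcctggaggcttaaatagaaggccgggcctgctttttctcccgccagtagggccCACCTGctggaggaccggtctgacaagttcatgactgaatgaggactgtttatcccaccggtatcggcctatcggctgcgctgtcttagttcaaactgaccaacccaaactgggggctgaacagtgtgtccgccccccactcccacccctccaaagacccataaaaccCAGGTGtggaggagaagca
Vim: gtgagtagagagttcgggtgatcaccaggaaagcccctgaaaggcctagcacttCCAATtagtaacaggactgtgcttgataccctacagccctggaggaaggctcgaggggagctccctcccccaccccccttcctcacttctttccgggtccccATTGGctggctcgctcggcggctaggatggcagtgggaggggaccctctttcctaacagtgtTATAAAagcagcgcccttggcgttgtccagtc
The Epcam window held the E-box at 2 places, which began 187 and 19 bases before the start. Among 32851 windows of the same length, 17.2% held this E-box at least once and 2.06% held it more than once. The Vim window had no match to the E-box letters, and its TATA box began 32 bases before the start, a motif that 12.4% of windows held. Its 2 CCAAT boxes began 196 and 94 bases before the start, and 33.8% of windows held at least 1 and 10.1% more than 1. A match is only a run of letters, and no binding was measured.

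A pair of RNAs differed from the rest in array quality. Attached C2 replicate 1 had a raised low end, with a 5th percentile of 109 on MOE430A and 177 on MOE430B where no other array exceeded 37.6 and 79.8. Attached D4 replicate 3 had a higher Actb 3' to 5' ratio, which rises as RNA degrades, of 1.84 and 1.92 where no other array exceeded 1.21 and 1.35. Replicates of a group correlated at r = 0.866 to 0.957 across probe sets on MOE430A and 0.684 to 0.818 on MOE430B, and pairs from different groups almost as well, at 0.823 to 0.956 and 0.659 to 0.818. Pou5f1, Nanog and Sox2, the defining ES cell markers, were above their array's median in 17 of 17 RNAs. Of 20 feeder fibroblast markers, 16 were used as a list on MOE430A, and their summed signal was 38096 to 87424 in early, 20060 to 38531 in attached and 9457 to 17393 in detached RNAs. Of the defining feeder markers, Lum and Pdgfrb were not tested and none of the others was near 0 in all RNAs.

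Vim, which encodes the intermediate filament protein of mesenchymal cells, fell from early to late passage. It was the single gene called in this comparison among the 9 tested members, and the uncalled members are not shown to be unchanged. All 3 of its probe sets, each on MOE430A, were called at an adjusted p under 0.05, against 3.38% of probe sets tested on that array type. On the brightest, 1450641_at, the linear MAS5 signals in early C2 were 20559.6, 20991 and 29286, and in early D4 they were 37657, 11329 and 29118. Attached C2 gave 10889, 14861 and 15842, and attached D4 gave 8094, 8540.3 and 17206. Detached C2 gave 4722, 5307 and 6860.3, and detached D4 gave 4676 and 5947. On this probe set the 5 detached RNAs lay below every attached and every early RNA of both lines. Attached and early RNAs overlapped through early D4 replicate 2. Detached and attached RNAs did overlap on 1438118_x_at, where detached D4 reached 1973 and attached D4 began at 1920. They also overlapped on 1456292_a_at, where detached C2 reached 853 and attached C2 began at 660. The share of all tested probe sets that separate in this way was not counted.

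On the log2(signal + 16) scale, late minus early passage over both lines was -1.52 ± 0.25 (SE) for this probe set, with an adjusted p of 0.0049 in limma, a 2.87-fold lower level. Its 95% interval was -2.05 to -0.997. The other Vim probe sets changed by -1.34 ± 0.27 (1438118_x_at, adjusted p = 0.016) and -1.49 ± 0.30 (1456292_a_at, adjusted p = 0.014). The 3 probe sets therefore gave similar sizes. Without early D4 replicate 1 the calls of 1438118_x_at and 1456292_a_at were lost (adjusted p = 0.061 and 0.054), and without early C2 replicate 3 that of 1438118_x_at (adjusted p = 0.051), while 1450641_at was called whichever RNA was left out.

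**Figure D1:**
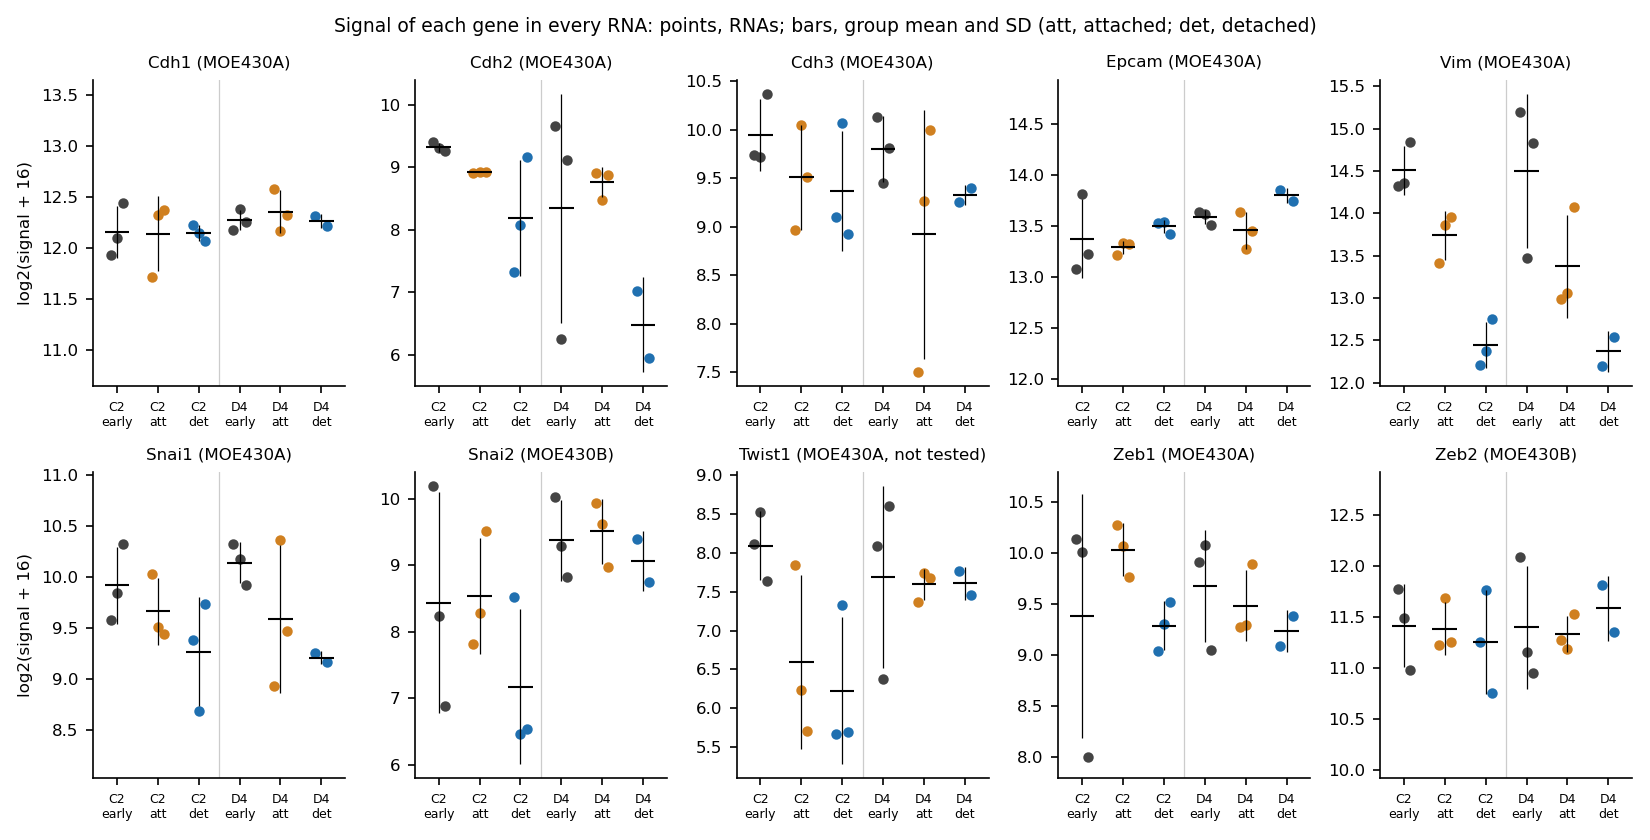
Signal of the probe set that represents each of the 10 genes, as log2(signal + 16), for every RNA of the 6 groups. Points are RNAs, horizontal bars group means and vertical bars SDs, and each panel has its own axis; the Vim group means step down from early (black) through attached (orange) to detached (blue) in both lines, while Cdh1 and Epcam stay within a narrow band.

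The late states were also set against early cells one at a time. Detached minus early was -2.10 ± 0.29 on 1450641_at (adjusted p = 0.0010, a 4.28-fold lower level), and all 3 Vim probe sets were called, against 4.63% on MOE430A. Attached minus early was -0.95 ± 0.28 and was not called (adjusted p = 0.20, with 0.177% called). These shares rest on 656 and 25 called probe sets, which became 272 to 835 and 3 to 56 when 1 RNA was left out. Detached minus attached was -1.15 ± 0.29 and was not called either (adjusted p = 0.11). None of the members' 14 tested probe sets was called by limma in that last comparison, beside 0.466% of those tested on MOE430A and 0% of those on MOE430B, and 5 of the 14 had p under 0.05 before adjustment, as did 10.3% of all 30373 tested probe sets. Without early D4 replicate 2, which enters only through the shared spread, the representing probe sets of Vim and Cdh2 were called there (adjusted p = 0.035 for both). That RNA was the lowest early D4 RNA for both genes, so leaving it out narrows their spread, and these calls are no added support. The Cdh2 probe set also passed the filter only through early RNAs.

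Both lines showed the same order of Vim levels. In C2 the group means on 1450641_at were 14.51 ± 0.29 (SD, n = 3) in early, 13.74 ± 0.29 (n = 3) in attached and 12.45 ± 0.27 (n = 3) in detached cells. In D4 they were 14.50 ± 0.91 (n = 3), 13.37 ± 0.61 (n = 3) and 12.37 ± 0.24 (n = 2). Detached minus early was called in each line for this probe set alone, at -2.06 in C2 (adjusted p = 0.022, with 0.826% called) and -2.13 in D4 (adjusted p = 0.033, with 1.05% called). The C2 call was lost when detached replicate 1 or 2 or early replicate 1 or 3 of C2 was left out, and the D4 call when either detached RNA or early replicate 1 or 3 of D4 was. Over the 17 fits that left out 1 RNA, the adjusted p reached 0.10 in C2 and 0.29 in D4, and both calls were also lost without the filter on dim signal (0.054 and 0.078). Neighbouring states in this order were not called within a line. The late minus early change in D4 minus that in C2 was -0.21 (95% interval -1.26 to 0.84).

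Vim was also low in detached cells among arrays processed together. Within the fluidics run that held detached and early C2 (2 RNAs each), detached minus early was -1.78 on 1450641_at, and within the run of detached and early D4 (2 RNAs each) it was -1.97. In another run, 1 detached C2 RNA minus the mean of 3 attached C2 RNAs gave -1.53. Attached and early RNAs of a line were in separate runs, so run and state cannot be told apart for that difference.

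The feeder fibroblast markers had the same order of states as Vim, with steps of other sizes. The mean of the 16 markers, as log2(signal + 16), was 11.20 ± 0.43 (SD) in early, 10.80 ± 0.25 in attached and 9.14 ± 0.53 in detached C2. In D4 it was 11.53 ± 0.13, 10.41 ± 0.42 and 8.76 ± 0.37. Detached minus early was thus -2.06 in C2 and -2.77 in D4 for the list, beside -2.06 and -2.13 for Vim. Attached minus early was -0.40 in C2 and -1.13 in D4 for the list. Vim means (1450641_at) went from 14.51 to 13.74 and from 14.50 to 13.37 there. Detached minus attached was -1.66 and -1.64 for the list, where Vim means went from 13.74 to 12.45 and from 13.37 to 12.37. With the list's level of each RNA as a covariate, late minus early for Vim was -0.42 ± 0.59 (SE, adjusted p = 0.98), -0.17 ± 0.67 and -0.41 ± 0.75 on its 3 probe sets. Without the covariate the SEs were 0.25, 0.27 and 0.30, so the covariate fit was much less precise and cannot show that the change is absent. None of the 30373 tested probe sets was called in the covariate fit. That covariate itself differs between the states. Beyond it, the part of feeder RNA in the Vim difference was not tested.

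Early D4 replicate 2 departed from this pairing. Its feeder list mean was 11.46, as in the other early D4 RNAs (11.68 and 11.46), but its Vim signal of 11329 was below 37657 and 29118. The same RNA was the lowest of its group for all 3 Vim probe sets and for both Cdh2 probe sets.

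**Figure D2:**
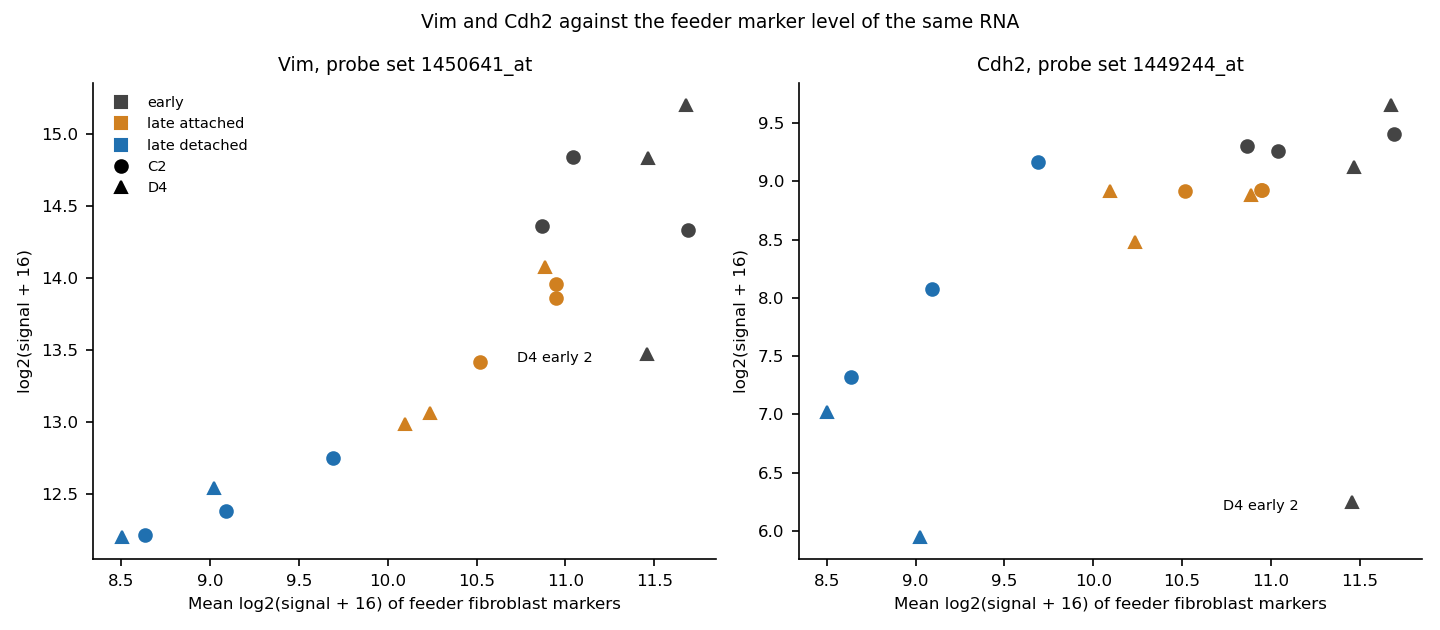
Vim (left) and Cdh2 (right) in each RNA against the mean of 16 feeder fibroblast markers in the same RNA, both as log2(signal + 16); circles are C2, triangles D4, and colours the states. Vim runs from detached to early RNAs along the feeder level, and early D4 replicate 2 lies low for both genes at a feeder mean of 11.46.

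The genes most like Vim over the 17 MOE430A arrays, by Pearson's r of log2 levels, were Anxa1 (r = 0.97), Prnp (r = 0.95) and Bgn (r = 0.95). Anxa1 encodes an annexin, Prnp the prion protein and Bgn the matrix proteoglycan biglycan. These points share their group structure and arrays, so r is given as a description.

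Cdh1, which encodes E-cadherin, showed no called difference, and its interval was narrow. Its single probe set, 1448261_at, gave 3909, 4377 and 5544 in early C2 and 4638, 5320.4 and 4899 in early D4. Attached cells gave 3352, 5137 and 5300.0 in C2 and 6118, 4601 and 5113 in D4. Detached cells gave 4795, 4539.7 and 4277 in C2 and 5082 and 4755 in D4. All groups overlapped, and the lowest value was that of attached C2 replicate 1, the RNA with raised low-end signal. Late minus early was 0.01 ± 0.13 (95% interval -0.26 to 0.28, adjusted p = 0.98), and detached minus attached was -0.04 (95% interval -0.36 to 0.28). The genes most like it were Efna3 (r = 0.89), Cks1b (r = 0.83) and Ist1 (r = 0.81).

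Epcam, an epithelial adhesion molecule on the ES cell surface, had a similarly narrow range on its MOE430A probe set, 1416579_a_at, from 8629 to 14749.5. Late minus early was 0.03 ± 0.12 (95% interval -0.22 to 0.28, adjusted p = 0.93). Detached RNAs lay above attached RNAs in each line, at 11749.5, 11894 and 10913 against 9482, 10262 and 10240.5 in C2 and at 14749.5 and 13715 against 12711, 9891 and 11149 in D4. The detached minus attached difference of 0.27 ± 0.14 was not called (95% interval -0.02 to 0.57, adjusted p = 0.37). The direction is opposite to that of Vim, whose own difference was not called either. The share of all tested probe sets that separate within each line was not counted, so the separation is only a description.

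The MOE430B probe set of Epcam, 1447899_x_at, spread more widely, from 3797 to 18393. Here detached and attached RNAs overlapped in both lines, at 5040 to 10701 against 3797 to 11581 in C2. In D4 they were at 9697 to 12201 against 7789 to 11057.5. The late minus early difference of this probe set was -0.58 ± 0.29 (adjusted p = 0.51), beside 0.03 on MOE430A. For late minus early, 0.0247% of the tested MOE430B probe sets were called. Of the 6 early arrays of that type, 4 came from a second chip lot that held no late array, and they gave 18393 in C2 and 10044, 17797 and 16350.0 in D4. The other early arrays gave 7318 and 12809, so the lot moves with the state here, and its part was not tested. The genes most like the MOE430A probe set were Nop14 (r = 0.84), Foxm1 (r = 0.79) and Map11 (r = 0.79).

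Cdh3, which encodes P-cadherin, was lower in late cells by a difference that was not called, -0.59 ± 0.32 on 1426673_at (adjusted p = 0.35). Signals were 826 to 1309 in early C2 and 684 to 1110.5 in early D4, and 472 to 1061 in late C2 and 165 to 1005 in late D4, so the groups overlapped. Its MOE430B probe set, 1441255_at, ran from 143 to 1743 and gave -0.02 ± 0.52. Ric8a (r = 0.85), S100a1 (r = 0.85) and Ifi47 (r = 0.82) were most like the MOE430A probe set.

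Cdh2, which encodes N-cadherin, was dim, and its tested probe set, 1449244_at, exceeded the array's median in 3 of 17 RNAs. In C2 the signals were 662, 617 and 599 in early, 468, 470.0 and 471 in attached and 144, 253 and 559 in detached cells. In D4 they were 792, 59.9 and 542 in early, 467, 342 and 457 in attached and 114 and 45.5 in detached cells. Early C2 RNAs lay above every late C2 RNA, and in D4 detached RNAs lay below attached RNAs, but early D4 replicate 2 at 59.9 fell among the detached values.

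The 3 RNAs above the median were all early (2 of C2 and 1 of D4), and no late RNA was, so the probe set passed the filter only through the group where it is high. Its late minus early difference of -0.75 ± 0.42, or -1.27 without early D4 replicate 2, is therefore given as a description with no test. Detached minus attached was -1.51 ± 0.50 and was not called (adjusted p = 0.21). The second Cdh2 probe set, 1418815_at, was not above the median of any array and was not tested, and its estimate was -0.89. The genes most like Cdh2 were Nab1 (r = 0.80), Ocel1 (r = 0.79) and Aebp1 (r = 0.79), of which Aebp1 encodes a secreted matrix protein of fibroblasts.

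**Figure D3:**
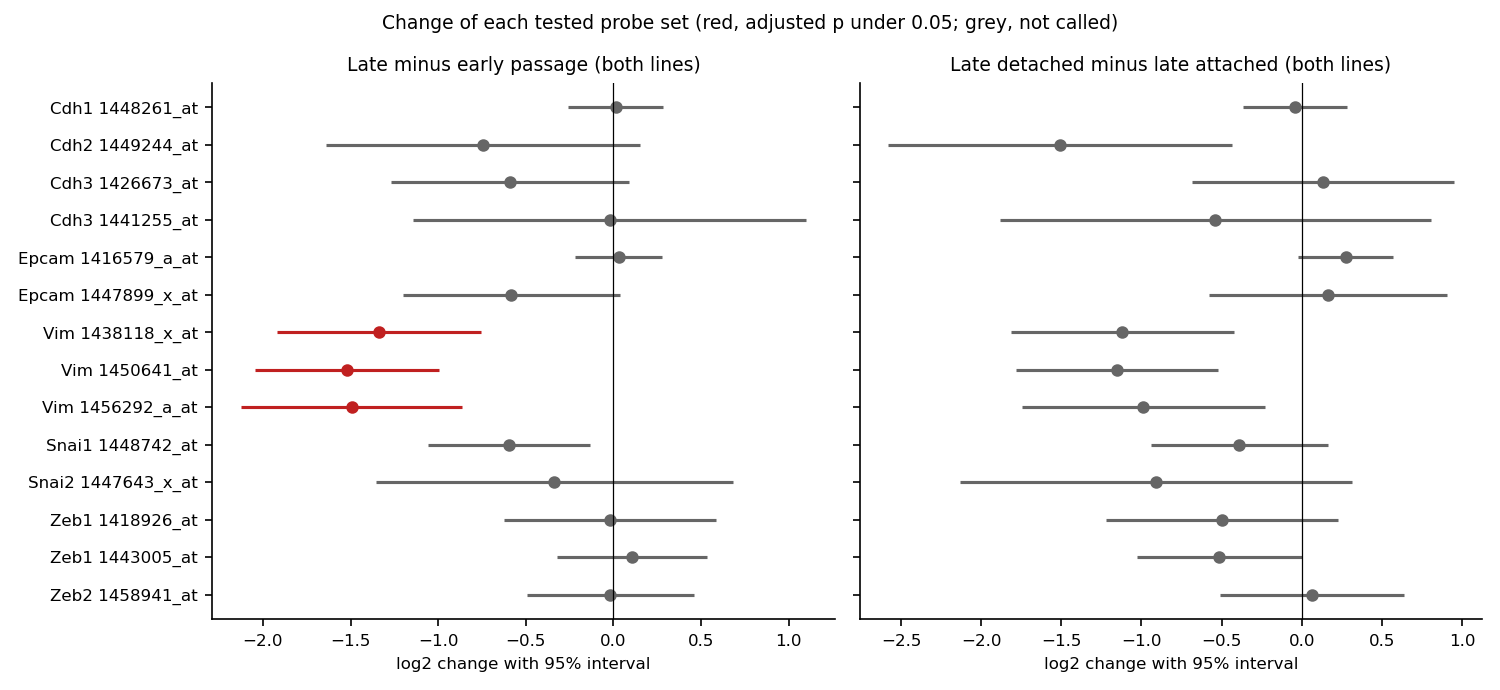
Change of each of the 14 tested probe sets over both lines, as a difference of log2(signal + 16) with its 95% interval, for late minus early passage (left) and late detached minus late attached (right). Red marks an adjusted p under 0.05: the 3 Vim probe sets on the left at -1.34 to -1.52 and none on the right, while Cdh2 on the left had passed the filter only through early RNAs and the intervals of Cdh1 and of the MOE430A probe set of Epcam are the narrowest around 0.

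Among the transcription factors none was called in either comparison. Snai1, which encodes Snail, had signals of 752, 904 and 1272 in early C2 and 1265, 1141 and 958 in early D4. Late signals were 397 to 1035 in C2 and 475 to 1308 in D4, overlapping the early ones. Late minus early was -0.60 ± 0.22 (unadjusted p = 0.015, adjusted p = 0.15). In D4 the detached RNAs at 595 and 559 lay below every early RNA. Zfp185 (r = 0.91), Palld (r = 0.90) and Ndrg3 (r = 0.87) were most like it, of which Palld encodes palladin, an actin-binding protein.

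Snai2, which encodes Slug, was measured by 1447643_x_at on MOE430B, above the median in 3 of 17 RNAs. Its signals were scattered within groups, at 1155, 286 and 102 in early C2 alone. Late minus early was -0.34 ± 0.47 (adjusted p = 0.83). D4 minus C2 was 1.27 ± 0.46 (unadjusted p = 0.015, adjusted p = 0.71), and the lines overlapped. The MOE430A probe set of Snai2 stayed at 10.6 to 328 and was never above the median. Mael (r = 0.83), Cenpu (r = 0.79) and Tmem248 (r = 0.79) were most like Snai2.

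Twist1 had 1 probe set, 1418733_at, which was never above its array's median, with signals of 34.7 to 374. Without the filter its late minus early estimate was -0.88 ± 0.39 (adjusted p = 0.37). Group means were 8.09 in early, 6.60 in attached and 6.23 in detached C2, and 7.69, 7.59 and 7.61 in D4. The estimate thus came mostly from C2, and at such low signals it may be noise. No level of Twist1 can be read beyond that it was dim on every array.

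Zeb1 had 2 tested probe sets, 1418926_at on MOE430A and 1443005_at on MOE430B. Late minus early was -0.02 ± 0.28 and 0.11 ± 0.20. Detached minus attached was -0.50 ± 0.34 (adjusted p = 0.49) and -0.52 ± 0.24 (adjusted p = 0.80). On 1443005_at the detached signals of 1333, 2125 and 1796 in C2 and 2082 and 2050.0 in D4 all lay below the attached ones, which were 2866, 2385 and 2698 in C2 and 2391, 2886 and 3048 in D4. On 1450641_at of Vim, detached and attached RNAs of both lines did not overlap either. How many of all tested probe sets separate in this way was not counted, so the separation is only a description. Early C2 replicate 3 was the lowest RNA on both tested Zeb1 probe sets, at 241 and 1267. The Zeb1 probe sets 1420243_at and 1446127_at were not above the median of any array and were not tested. From attached to detached cells, group means of 1420243_at went from 7.28 to 5.87 in C2 and from 6.73 to 6.57 in D4. Those of 1446127_at went from 7.49 to 7.15 in C2 and from 6.44 to 7.04 in D4, so the lines differed in direction there. Spi1 (r = 0.87), Tmem186 (r = 0.86) and P2rx7 (r = 0.85) were most like the MOE430A probe set.

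Zeb2 had 5 probe sets, of which 4 stayed dim and were not tested. The tested one, 1458941_at on MOE430B, was above the median in 17 of 17 RNAs, at 1705 to 4333. Late minus early was -0.02 ± 0.22 (95% interval -0.50 to 0.46) and detached minus attached 0.06 ± 0.27. Of the untested ones, 1456389_at gave an estimate of 1.24 for detached minus attached and 1434298_at one of -1.20, so the dim probe sets of Zeb2 disagreed in direction. Ccdc30 (r = 0.73), Orai2 (r = 0.72) and Elavl1 (r = 0.71) were most like Zeb2.

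No difference between the lines was called for any of the 14 probe sets. For D4 minus C2, limma called 0 of 30373 probe sets over both array types (0%), and 1989 had p under 0.05 before adjustment. Of the members, Snai2 is given above. Cdh2 was at -0.95 ± 0.40, given as a description with no test, since its probe set passed the filter only through early RNAs. That value includes early D4 replicate 2 at a signal of 59.9. The test of the difference between lines in the late minus early change called no member (0.00329% of probe sets called), and that in the detached minus attached change called none either (0.00988%). A p above the threshold does not show that the lines were alike.

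Around the members, 8 lists of related genes were followed, each gene by its brightest tested probe set. Over 14105 tested genes, 0.617% rose and 1.48% fell from early to late passage, and the median change was -0.02. Of the junction genes, 1 of 11 catenins and adherens junction partners fell (median -0.08), 0 of 14 tight junction genes were called (median -0.28) and 1 of 6 desmosome genes fell (median -0.26). Beta-catenin (Ctnnb1), the partner of E-cadherin, was at 0.09 (adjusted p = 0.72). The genes that fell were Vcl, which encodes vinculin, a link from adhesion sites to actin (-0.91 ± 0.18, adjusted p = 0.014), and Perp, a desmosome membrane protein (-0.98 ± 0.21, adjusted p = 0.020). Vcl signals were 3471 to 8493 in early and 1968 to 3818 in late RNAs.

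Of 16 epithelial regulators and surface genes, 1 fell, St14, which encodes the membrane protease matriptase (-0.57 ± 0.13, adjusted p = 0.028), and the median was -0.02. Its signals were 2238 to 4022 in early and 1754 to 2636 in late RNAs. Of 10 other cadherins, 1 fell, Cdh11, the cadherin of fibroblasts and bone-forming cells, with a change of -1.49 ± 0.25 (adjusted p = 0.0057). Cdh11 also fell from attached to detached cells, with a change of -1.96 ± 0.30 (adjusted p = 0.011), where 0.0354% of genes rose and 0.269% fell. Its signals were 531 to 1163 in early, 262 to 894 in attached and 85.7 to 173 in detached RNAs, so the detached RNAs stood below all others.

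The other intermediate filaments held the largest changes among these lists. Krt8 and Krt18, the keratin pair of simple epithelia, fell, with changes of -2.71 ± 0.48 (adjusted p = 0.0076) and -2.73 ± 0.47 (adjusted p = 0.0066). Krt8 signals were 3457 to 52377 in early, 1349 to 3100.4 in attached and 1106 to 2012 in detached RNAs, and those of Krt18 ran from 3849 to 60134 in early and from 1225 to 3273 in late RNAs. Early and late RNAs did not overlap for either gene. These were 2 of 13 filament genes, with a list median of -0.25, so an epithelial filament pair and the mesenchymal filament Vim were both lower in late cells.

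Of 10 other transition factors and Id proteins, 1 fell with passage, Id2, an inhibitor of basic helix-loop-helix factors (-1.85 ± 0.34, adjusted p = 0.0100), and the list median was -0.14. Twist2, a relative of Twist1, fell from attached to detached cells (-1.26 ± 0.25, adjusted p = 0.039), from signals of 590.2 to 2366 to 258 to 677. Of 15 TGF-beta ligands, receptors, Smads and targets, 1 fell, S100a4, a calcium-binding protein of motile cells and fibroblasts (-1.57 ± 0.38, adjusted p = 0.037), with a list median of -0.38. Tgfb2 and Tgfb3 were at -2.20 and -1.75 and were not called (adjusted p = 0.083 and 0.060). No gene of the 8 lists rose in these 2 comparisons. None was called for attached minus early, where 10 of 14105 tested genes rose and 14 fell. For detached minus early 118 of the 14105 rose and 299 fell. Of the lists, 1 gene rose there, Id1, another inhibitor of helix-loop-helix factors (1.15 ± 0.22, adjusted p = 0.0091). Cldn3, a tight junction claudin, Krt7 and Tgfb3 joined those that fell (-1.06, -2.31 and -2.18). St14 was called only for late minus early, and was at -0.59 (adjusted p = 0.13) for attached and -0.55 (adjusted p = 0.059) for detached minus early.

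Beside these, 11 of 17 tested feeder fibroblast markers fell with passage (median -1.54) and 8 of 17 from attached to detached cells (median -1.46). Col1a1, a fibrillar collagen gene, fell by 4.21 and 3.18 in these comparisons. Of 12 ES cell markers, 1 rose with passage, Sox2 (0.71 ± 0.16, adjusted p = 0.027), and the median was 0.38. None of the 7 extraembryonic endoderm, 5 primitive streak and mesoderm, 2 neuroectoderm and 4 trophoblast markers tested was called in either comparison. What part the feeder level has in the changes of Cdh11, Twist2, S100a4 and the others was not tested.

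**Figure D4:**
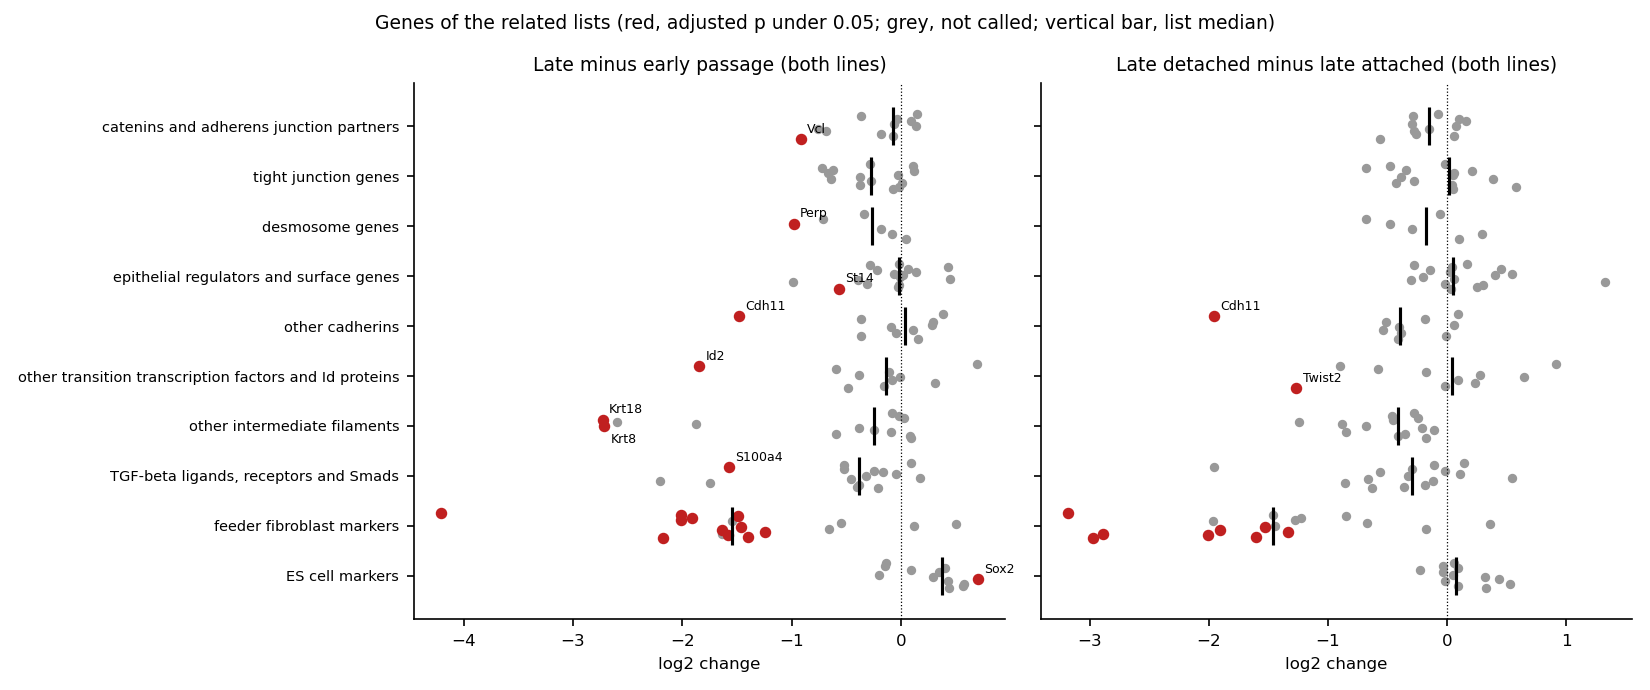
Change of each tested gene in the 8 related lists and in the feeder fibroblast and ES cell markers, as a difference of log2(signal + 16), for late minus early passage (left) and late detached minus late attached (right). Points are genes, red those with an adjusted p under 0.05, and the vertical bars list medians; Krt8 and Krt18 lie near -2.7 on the left, and Cdh11 is the 1 list gene outside the markers in red on both sides.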

How the data were processed

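Total RNA, in 17 samples, was measured on Affymetrix MOE430A and MOE430B arrays. The deposited values are linear signal intensities per probe set, made by the authors with MAS5 per the submitters' processing notes; its version and detection calls are not given in the sources used here. The 2% trimmed mean was 1500.1 to 1500.6 on every array, so each array was scaled on its own. Chip lots and fluidics times came from the deposited array information. Arrays of a station logged within 10 minutes of each other were taken as a run.

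Values were used as log2(signal + 16) with no further scaling, which understates fold changes of dim probe sets. Probe sets above their array's median on at least 2 of 17 arrays were tested, 14160 on MOE430A and 16213 on MOE430B. Of 22690 and 22575 probe sets, 20393 and 14674 had 1 symbol, 691 and 245 several and 1606 and 7656 none. Platform annotation gave the symbols, which the GRCm38.p6 gene table brought up to date.

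In R 4.3.3, limma 3.58.1 fitted the 6 groups of each array type with a shared spread. P-values were adjusted by Benjamini-Hochberg over all tested probe sets of an array type, and called under 0.05. The fit was tested on simulated data. List genes were read from their brightest tested probe set, with MOE430A preferred. Named were all 10 members, up to 4 called genes per list and the 3 genes most like each member. Members and lists were chosen with earlier results of these data known. The number of arrays limits the precision. Alternatives were another pseudocount, filter, normalization, weights, blocks, the feeder covariate and left-out RNAs.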

Additional observations from a re-analysis of the deposited data

How the results depend on the processing

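Of the members' 14 tested probe sets, the 3 of Vim passed for late minus early passage. None was called with the feeder covariate or with attached cells alone, and leaving out 1 RNA gave 1 to 4, where the count of 4 includes Cdh2, which passed the filter only through early RNAs. Between detached and attached cells the count was 0, against 2 with array weights, 1 with an intensity trend and 0 to 2 when 1 RNA was left out. The 2 in a left-out fit were Vim and Cdh2 without early D4 replicate 2, the low RNA for both. Within lines, 2 calls were made over 6 comparisons, against 0 without the filter or with the feeder covariate, 6 with the filter at the 75th percentile, 8 with array weights, 6 with an intensity trend, 4 without attached C2 replicate 1 and attached D4 replicate 3, and 1 to 5 when 1 RNA was left out. Over all probe sets, late minus early gave 482 calls, against 248 without the filter, 752 with array weights, 767 with an intensity trend, 0 with the feeder covariate, 28 with attached cells alone and 197 to 626 when 1 RNA was left out. Between detached and attached cells 66 were called, against 39 after quantile normalization, 418 with array weights, 0 with the feeder covariate, 35 without the 2 RNAs that stood apart and 22 to 153 when 1 RNA was left out. For late minus early the RNAs whose removal moved the count by over 1.5 times were early C2 replicates 1 (290 calls) and 3 (265), detached D4 replicates 1 (283) and 3 (272) and early D4 replicate 1 (197). For detached minus attached they were attached C2 replicate 2 (25), detached C2 replicate 1 (43), attached D4 replicates 1 (153), 2 (32) and 3 (39) and detached D4 replicate 1 (22). For D4 minus C2 the count was 0 to 2 when 1 RNA was left out and 0 under the other alternatives. Within lines the counts over all probe sets moved as well, so the members' counts there are not read as particular to them. Detached minus early gave 120 calls in C2 and 151 in D4, and 48 to 171 and 16 to 181 when 1 RNA was left out. Under the other alternatives it gave 0 to 347 and 0 to 835. Detached minus attached gave 31 in C2 and 5 in D4, and 1 to 593 and 0 to 13 under the other alternatives. Attached minus early gave 5 and 7, and 0 to 23 and 0 to 28. Over both lines, attached minus early gave 28 calls (3 without attached D4 replicate 3, 57 without early C2 replicate 2) and detached minus early 677 (277 without detached D4 replicate 3, 842 without early D4 replicate 3). The causes of these shifts were not tested, and left-out fits also hold 1 RNA fewer. No called member change reversed. Of 1993 member changes under alternatives, 167 turned sign while uncalled. Where a left-out RNA leaves detached D4 with 1, that RNA is assumed to vary like the other groups. No clear pairing by replicate number was seen: of 40 same-number pairs on MOE430A, 7 correlated above 0.1, with a median of -0.01. Of 80 different-number pairs there, 10 did, with a median of 0.007. With the replicate block, these 2 comparisons gave 431 and 63 calls, and 3 and 0 of the members' probe sets. With the fluidics run as a random block the counts were 489 and 72. Late minus early on MOE430B without the second chip lot was not run, since no early D4 array remains; detached minus attached there called no member. Dim probe sets such as those of Twist1 and Cdh2 limit what can be read.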
